A study of Rattus norvegicus with 24 samples.

Results

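miR-126a is a microRNA best known from endothelium, the cell layer that lines blood vessels, and its 2 arms, rno-miR-126a-5p and rno-miR-126a-3p, were followed in rat serum. The arms are the 2 mature strands cut from the same hairpin precursor, and both were selected by name from the 753 mature miRNA names in the count table. Serum came from male Wistar Kyoto rats housed in shared cages, which received their diet from 4 weeks of age for 8 weeks and were then exposed for 4 h per day on 2 consecutive days. Its small RNA was sequenced. The 4 groups were a diet with 6% fish oil by weight with 0.8 ppm ozone (5 libraries), the fish oil diet with filtered air (6 libraries), the normal facility chow with ozone (6 libraries) and the normal chow with filtered air (6 libraries). The labels describe 24 samples, but fish oil ozone replicate 2 has no column in the deposited files, which leaves 23 libraries. No other oil diet was analysed here, so fish oil cannot be told apart from any other difference between the feeds.

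In mouse and human, miR-126 lies inside an intron of Egfl7, a gene for a secreted endothelial protein, and is made together with it. The 3p strand is usually treated as the guide strand. In mouse and human endothelial cells it represses Spred1 and Pik3r2, inhibitors of growth factor signalling, and the leukocyte adhesion molecule Vcam1. The 5p strand represses the Notch ligand Dlk1 in mouse endothelium. Platelets also carry miR-126, and in serum a strand may come from vessel wall, platelets or other cells. More release from each cell and release from more cells cannot be told apart in such data.

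The mature strands are shown because the results turn on the count of each, with the seed (bases 2 to 8, which pair with targets) in capitals. The sequences are RefSeq's, with build GRCr8, and both strands were found there by name.
rno-miR-126a-5p: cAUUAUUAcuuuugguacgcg
rno-miR-126a-3p: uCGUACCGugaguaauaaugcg
The seeds differ, and 0 other mature rat miRNA names in that table shared either of them. RefSeq files both strands under the gene symbol Mir126b, on the plus strand of chromosome 3 within the span of Egfl7, which has the same strand. In the deposited files, on build rn5, the 5p strand lies on chromosome 3 from 9402744 to 9402765 and the 3p strand from 9402781 to 9402803. Stop minus start equals the length of each strand (21 and 22 bases), so 1 end of each interval is not itself part of the strand.

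Another name, rno-miR-126b, overlaps the 5p strand on the opposite strand, and is shown because its bases in capitals are the reverse complement of bases 1 to 17 of miR-126a-5p.
rno-miR-126b: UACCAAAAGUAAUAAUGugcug
It had 0 counts in every library, 0 of 1164051 miRNA counts in all. For independent reads that allows a share of up to 0.000258% (upper 95% limit). The limit does not cover any of its reads that were assigned to another name. How reads were divided between overlapping names is not given in the sources used here.

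Depth differed with the diet. Each library held between 23276 and 94264 miRNA counts. The fish oil libraries held 0.549 times the miRNA counts of the normal diet libraries by geometric means, averaged over exposures (exact permutation test within exposures, two-sided, p = 0.000122). The implied read total, which is the larger total behind the authors' RPM, was 1.08 times as high with fish oil (exact permutation, p = 0.642). Levels below are therefore given both as CPM, which is relative to the miRNA counts after TMM scaling, and as RPM. TMM, edgeR's trimmed mean, multiplies the miRNA total of each library by a factor, here from 0.779 to 1.44. CPM is thus not a plain share of the miRNA counts. The labels do not say whether every library came from its own rat, so p-values measure the spread between these libraries. The rats shared cages, and no cage is given for any library. The tests therefore treat cage mates as independent, and an effect of cage could not be told apart from that of diet. No batch is labelled, and one that followed the groups could not be told apart from them.

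miR-126a was seen in serum almost wholly as its 5p strand. Over the 23 libraries 16953 counts were 5p and 259 were 3p, a ratio of 65.5 to 1. Together they made up 1.48% of all miRNA counts. By mean CPM miR-126a-5p ranked 14 of the 136 names tested and miR-126a-3p ranked 117, at means of 15555 and 247 CPM. Both passed the low-count filter. The 3p strand passed it mainly through fish oil libraries, since the normal diet libraries at its cutoff were too few on their own. Without the filter, the change of 3p with fish oil, averaged over exposures, was 0.96 on the log2 scale (edgeR adjusted p = 0.0337). The 5p strand had between 238 and 1563 counts per library, but the 3p strand had between 1 and 22. In 3 libraries, all on the normal diet, the 3p count was 3 or lower, the count set here as the floor. The fitted variation between libraries beyond counting error was 35.4% for 5p and 43.9% for 3p, against a median of 34.7% over all names tested.

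Among the 14 precursors with both arms tested, 9 had more 5p and 5 had more 3p. The mean log2 ratio of 5p over 3p was 6.07 for miR-126a, the second highest. miR-10a, of the Hox clusters, had 7.38, and miR-21, an abundant miRNA of many tissues and the most counted of these precursors, had 6.00. The within-group SD of the ratio was 0.81, 0.90 and 0.80 on the log2 scale for miR-126a, miR-10a and miR-21, so miR-126a and miR-21 differed by less than their spread between libraries. These ratios are read counts and carry any difference between strands in ligation or mapping, which was not tested.

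**Figure D1:**
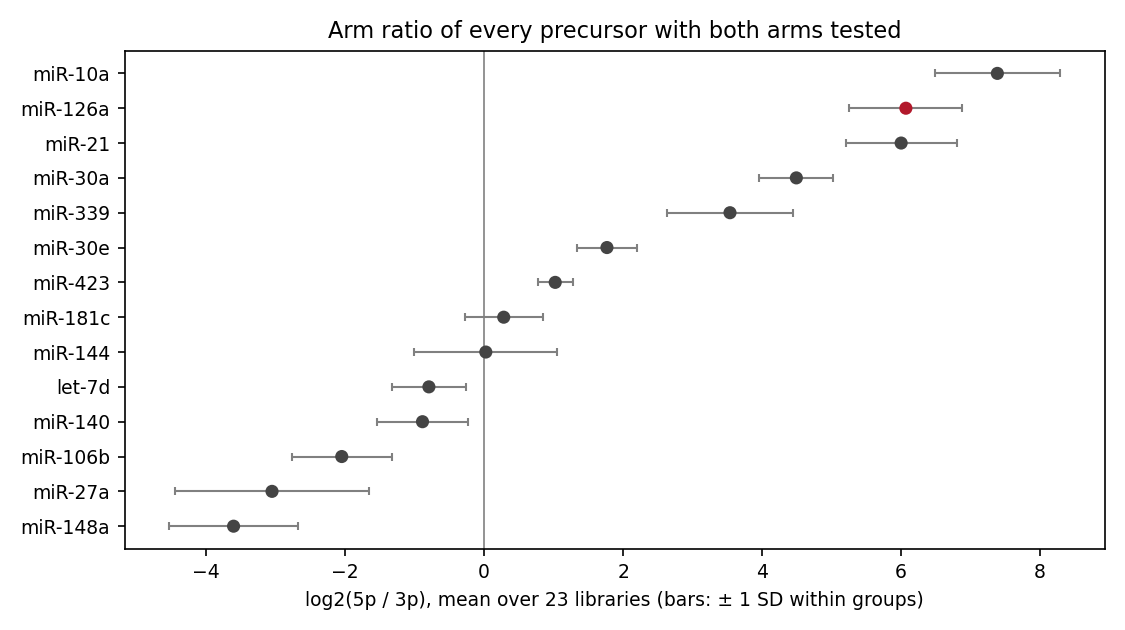
Mean log2 ratio of 5p to 3p counts (x axis, over 23 libraries) for each of 14 precursors with both arms tested, ordered from the highest; bars are 1 SD within groups and miR-126a is in red. miR-126a lies at 6.07, between miR-10a at 7.38 and miR-21 at 6.00.

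With fish oil, both strands were higher on average in CPM, and also as a plain share of the miRNA counts. In rats on fish oil with ozone, miR-126a-5p was at 17022, 31824, 28609, 25437 and 12172 CPM in replicates 1, 3, 4, 5 and 6. In rats on fish oil with air it ran from 8238 through a median of 17492 to 20514 CPM. On the normal diet it ran from 9765 through 12305 to 28123 CPM with ozone, and from 6403 through 10022 to 14291 CPM with air. The groups overlap: 4 of 6 fish oil libraries in air lay above every normal diet library in air, whereas in ozone normal ozone replicate 6 lay above 3 of the 5 fish oil libraries.

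The 3p strand followed the same order of groups at much lower counts. On fish oil with ozone, miR-126a-3p had 6, 13, 22, 12 and 10 counts, or 185, 427, 495, 467 and 304 CPM. On fish oil with air it had 8 to 22 counts (median 11) and 198 to 362 CPM (median 341). On the normal diet it had 3 to 20 counts (median 11.5) and 50.8 to 360 CPM (median 186) with ozone, and 1 to 20 counts (median 8.5) and 26.9 to 279 CPM (median 166) with air. All 11 fish oil libraries lay above the mean of the normal diet group of the same exposure, but the ranges overlapped under both exposures.

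**Figure D2:**
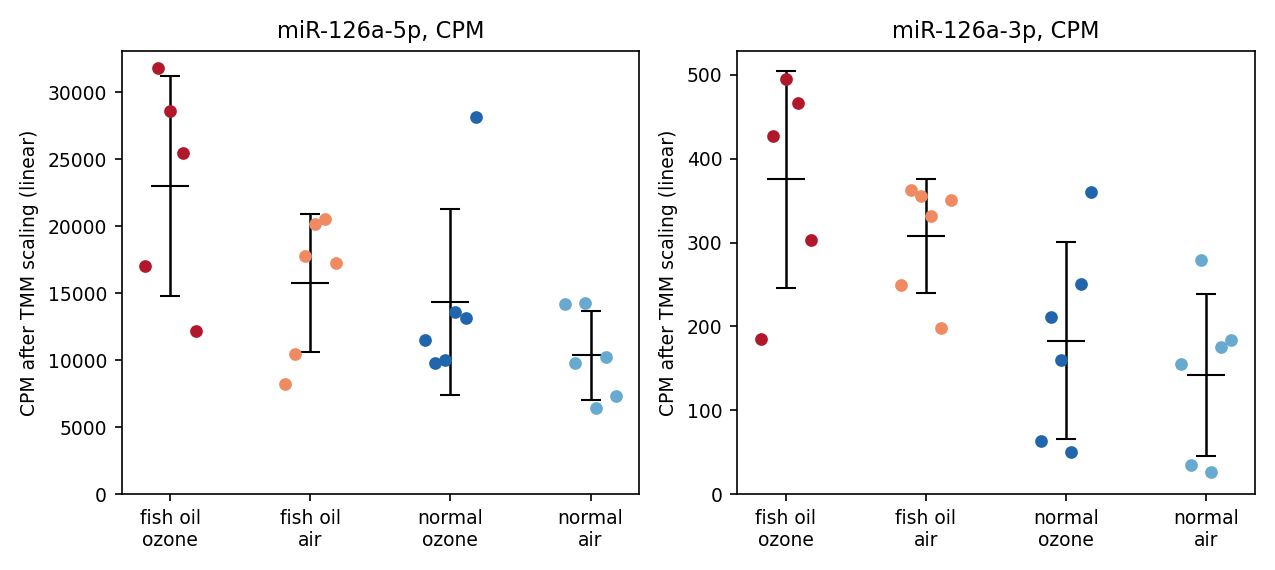
CPM after TMM scaling (y axes, linear, from 0) of miR-126a-5p (left) and miR-126a-3p (right) in each library, by diet and exposure; bars are the mean ± SD (n = 5 for fish oil with ozone, n = 6 for the others). For both strands the means fall in the order fish oil ozone, fish oil air, normal ozone, normal air, with overlap between neighbouring groups.

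Averaged over exposures, both strands rose with fish oil. The log2 fold change was 1.06 for miR-126a-3p (SE 0.33, edgeR adjusted p = 0.0136) and 0.64 for miR-126a-5p (SE 0.21, edgeR adjusted p = 0.0150). Of the 136 names tested 50 were called in this comparison, which is 36.8%, and 27 of them, 19.9%, were higher, so calls were common. The mean level of 5p was 23013 ± 8189 CPM on fish oil and 14347 ± 6928 on the normal diet in ozone, and 15731 ± 5155 against 10372 ± 3320 in air (SD, n = 5, 6, 6 and 6). For 3p these means were 376 ± 129 and 183 ± 117 CPM in ozone, and 308 ± 67.9 against 143 ± 96.6 in air. In edgeR the 5p call was lost without fish oil ozone replicate 3 (log2 change 0.51, adjusted p = 0.0669), normal ozone replicate 2 (adjusted p = 0.0506) or normal air replicate 4 (adjusted p = 0.0501). The 3p call held without any of the 23 libraries left out in turn (edgeR adjusted p at most 0.0350).

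Within each exposure the changes were of similar size but did not pass. In air, where 5.88% of names were called, the log2 change with fish oil was 1.07 for 3p (SE 0.46, edgeR adjusted p = 0.149) and 0.60 for 5p (SE 0.28, adjusted p = 0.156). After ozone, where 22.8% were called, it was 1.05 for 3p (SE 0.48, edgeR adjusted p = 0.107) and 0.68 for 5p (SE 0.30, adjusted p = 0.0948). Single libraries bore on the comparison after ozone. Without normal ozone replicate 6 the change was 0.99 for 5p (edgeR adjusted p = 0.0104) and 1.36 for 3p (adjusted p = 0.0418), and both passed. In the other direction it was 0.45 for 5p without fish oil ozone replicate 3 (edgeR adjusted p = 0.300) and 0.78 for 3p without normal ozone replicate 4 (adjusted p = 0.238). The share of names called also rested on fish oil ozone replicate 3, since 31 of 136 were called with it and 12 of 144 without it.

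As RPM, which is relative to the implied read total, neither strand passed a test for a difference with fish oil. The 5p strand was at 101, 427, 324, 141 and 65.5 on fish oil with ozone, and at 46.5 to 200 (median 120) on fish oil with air. On the normal diet it was at 101 to 697 (median 160) with ozone and at 49.3 to 386 (median 117) with air. Under each exposure, 0 fish oil libraries lay above the highest normal diet library. That rests on single libraries: normal ozone replicate 6 (697, next highest 294) and normal air replicate 3 (386, next highest 148). Fish oil ozone replicates 3 and 4 (427 and 324) and fish oil air replicates 3 and 5 (200 and 152) lay above the next highest. The other fish oil libraries lay below it. The 3p strand had means of 3.33 ± 2.20 and 3.46 ± 3.26 RPM on fish oil and on the normal diet in ozone, and 2.23 ± 1.03 against 2.34 ± 2.74 in air (SD, n = 5, 6, 6 and 6). On the log2(RPM + 0.1) scale, the average change with fish oil was -0.22 for 5p (SE 0.40, limma adjusted p = 0.668) and 0.45 for 3p (SE 0.49, limma adjusted p = 0.457).

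**Figure D3:**
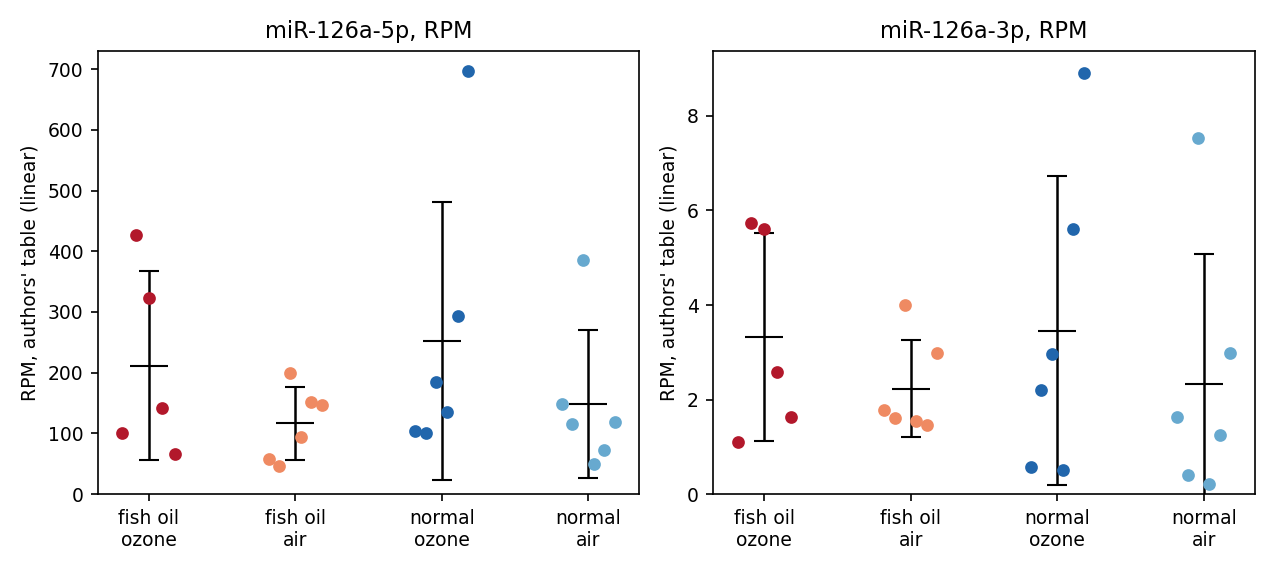
The authors' RPM (y axes, linear, from 0) of miR-126a-5p (left) and miR-126a-3p (right) in each library, by diet and exposure; bars are the mean ± SD (n = 5 for fish oil with ozone, n = 6 for the others), drawn only above 0. The highest 5p library is normal ozone replicate 6 at 697 RPM, and the fish oil groups do not stand above the normal diet groups.

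Raw counts per library did not pass a test either. A fish oil library held on average 769 ± 349 counts of 5p with ozone and 646 ± 309 with air, and a normal diet library 885 ± 410 and 654 ± 276 (SD, n = 5, 6, 6 and 6). The ratio of geometric means with fish oil, averaged over exposures, was 0.927 for 5p (exact permutation within exposures, p = 0.718) and 1.56 for 3p (exact permutation, p = 0.165). Over the same comparison the miRNA total was 0.549 times as high. When edgeR took the implied read total for the library size, the median of all 136 names was -0.87 on the log2 scale, against 0.06 with TMM, and the calls became 1 higher and 70 lower in place of 27 and 23. On that scale 5p was at -0.30 (SE 0.37, edgeR adjusted p = 0.494) and 3p at -0.00216 (SE 0.64, adjusted p = 0.997). Relative to the median of all names, 5p stood 0.58 higher with TMM and 0.57 higher with the implied read total, and 3p stood 0.997 and 0.87 higher. Both strands were thus above the median name by these point estimates, which were not tested. A change of library size moves all names nearly alike. The 2 scales therefore had to give similar distances from the median, and the second adds no support to the first.

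**Figure D4:**
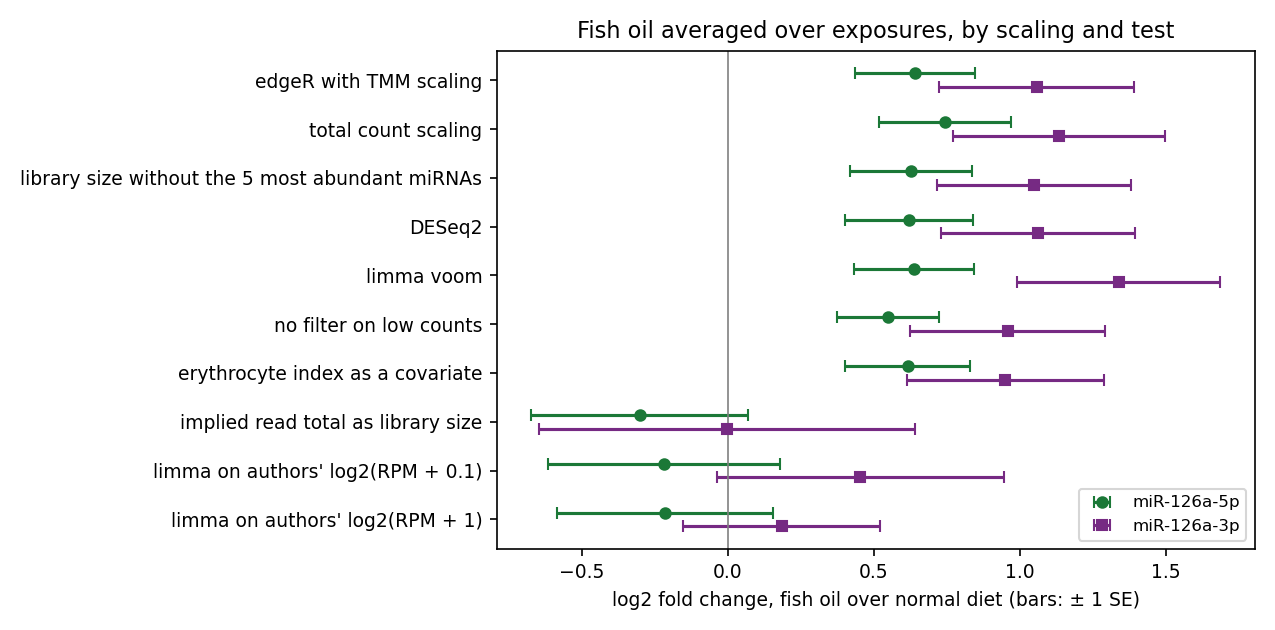
Log2 fold change of fish oil over normal diet, averaged over exposures (x axis, bars ± 1 SE), of miR-126a-5p (green circles) and miR-126a-3p (purple squares) under 10 combinations of scaling, test and filter (y axis). The settings that scale to miRNA counts give 0.55 to 1.34, and the 3 that scale to the implied read total give -0.30 to 0.45.

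No change of either strand with ozone passed the test. Averaged over diets, the log2 change with ozone was 0.51 for 5p (SE 0.21, edgeR adjusted p = 0.794) and 0.30 for 3p (SE 0.33, edgeR adjusted p = 0.915). Only 0.735% of names, 1 of 136, were called, and that name was miR-375-3p, a miRNA of endocrine cells named here after its values were seen (log2 change 0.90, edgeR adjusted p = 0.0462). That count was 0 in voom, with total count scaling, with a red cell covariate and in 18 of the 23 fits that left out a library. On fish oil the change was 0.55 for 5p (SE 0.30, edgeR adjusted p = 0.667) and 0.29 for 3p (SE 0.47, adjusted p = 0.911). On the normal diet it was 0.47 for 5p (SE 0.28, edgeR adjusted p = 0.939) and 0.30 for 3p (SE 0.47, adjusted p = 0.939). The share of names called by edgeR was 0% on each diet, with 10 names at an unadjusted p below 0.05 on fish oil and 4 on the normal diet; DESeq2 called 0 and 1. In RPM the mean of 5p was also higher with ozone, at 212 ± 156 against 116 ± 59.9 in air on fish oil and 253 ± 229 against 148 ± 122 in air on the normal diet (SD, n = 5, 6, 6 and 6). By geometric means that was 1.63 times with ozone, averaged over diets (exact permutation within diets, p = 0.101).

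No difference in the effect of fish oil between exposures passed the test. The interaction, the fish oil change in ozone minus that in air, was 0.08 on the log2 scale for 5p (SE 0.41, edgeR adjusted p = 0.966) and -0.02 for 3p (SE 0.60, adjusted p = 0.987). edgeR called 0% of names for the interaction, with 6 at an unadjusted p below 0.05 and 0 in DESeq2 or voom.

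The 3p share of both arms was low in every library, and its difference between diets did not pass. On fish oil with ozone it was 1.07%, 1.33%, 1.70%, 1.80% and 2.43% of both arms. On fish oil with air it ran from 0.956% through a median of 1.98% to 3.34%. On the normal diet it ran from 0.373% through 1.42% to 2.12% with ozone, and from 0.351% through 1.39% to 2.45% with air. Summed over libraries the share was 1.61% (95% exact binomial interval 1.24 to 2.06) and 1.87% (1.47 to 2.35) on fish oil with ozone and with air, and 1.25% (0.967 to 1.58) and 1.38% (1.04 to 1.80) on the normal diet. Such intervals cover counting error only and leave out the spread between libraries. They can be too narrow even for counting error, since PCR reads without molecular identifiers are not independent molecules.

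**Figure D5:**
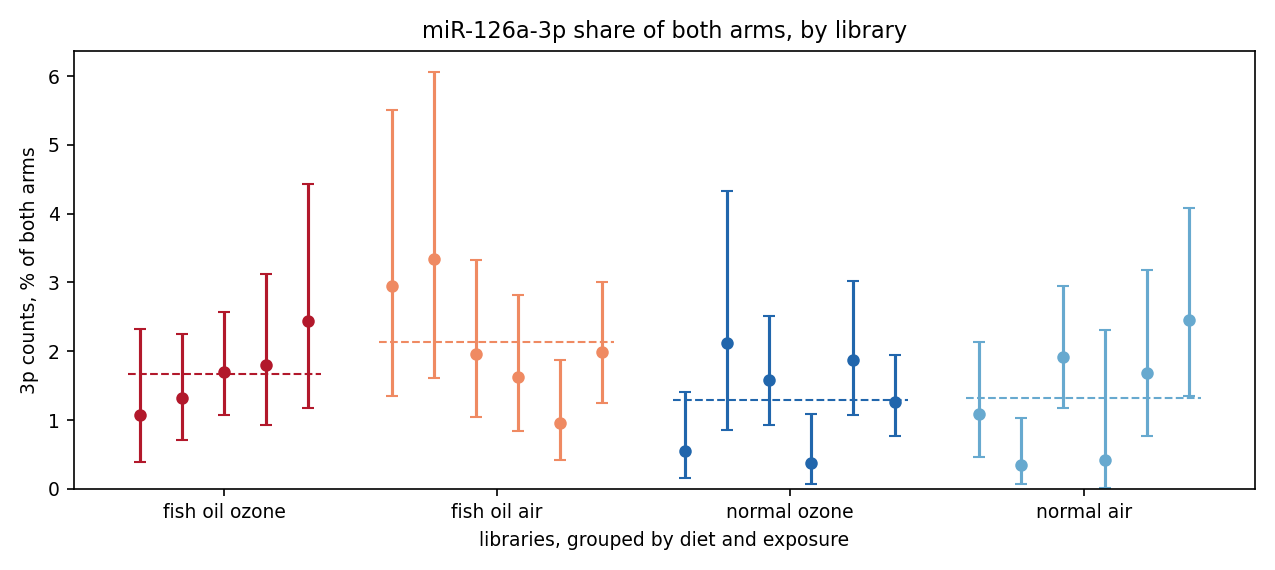
Counts of miR-126a-3p as a percent of both arms (y axis, from 0) in each library, by diet and exposure; bars are 95% exact binomial intervals and dashed lines are group means. Library values lie between 0.351% and 3.34%, and the intervals of most libraries overlap.

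The log2 ratio of 5p to 3p had means of 5.87 ± 0.44 on fish oil with ozone, 5.57 ± 0.65 on fish oil with air, 6.41 ± 0.97 on the normal diet with ozone and 6.39 ± 1.04 on the normal diet with air (SD, n = 5, 6, 6 and 6). The difference with fish oil, averaged over exposures, was -0.68 (exact permutation within exposures, two-sided, p = 0.0574). It was -0.83 in air (exact permutation, adjusted p = 0.511 over 4 comparisons) and -0.53 after ozone (exact permutation, adjusted p = 0.528). With ozone the ratio differed by 0.31 on fish oil (exact permutation, adjusted p = 0.528) and by 0.01 on the normal diet (exact permutation, adjusted p = 0.970). The interaction was 0.29 (SE 0.66, limma adjusted p = 0.980). Leaving out any of 7 libraries brought the average difference past 0.05, with an exact p of 0.0305 at the lowest: fish oil ozone 1, fish oil air 5, normal ozone 2 or 5, or normal air 3, 5 or 6. In limma over the 14 precursors, 1 passed with fish oil averaged over exposures (7.14%), which was miR-30e, and miR-126a had an adjusted p of 0.146.

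Across the 23 libraries the arms varied together. The log2 CPM of 5p and 3p had a Pearson r of 0.63 (permutation p = 0.00078) and a Spearman rho of 0.68 (permutation p = 0.00056). Libraries were permuted without regard to group, so these p-values also reflect the rise of both arms in CPM with fish oil. Without the 2 libraries farthest from the median 5p level r was 0.51. After subtraction of group means r was 0.44, which was not tested. Within the groups of 6, r was -0.01 on fish oil with air, 0.46 on the normal diet with ozone and 0.59 on the normal diet with air. Both values share a library and its scaling factor, and this was the 1 relation tested.

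By the same measure, the miRNAs most like miR-126a-5p were miR-150-5p (r = 0.79 over 23 libraries), miR-23b-3p (0.77), miR-146a-5p (0.71), miR-27b-3p (0.71) and miR-217-5p (0.64). Those most like miR-126a-3p were miR-23b-3p (0.73), miR-144-3p (0.68), miR-27b-3p (0.66), miR-30e-5p (0.63) and miR-126a-5p itself (0.63). miR-23b-3p and miR-27b-3p, which are made from the same cluster, were thus high on both lists. They rose with fish oil averaged over exposures by 0.70 and 0.61 on the log2 scale (edgeR adjusted p = 0.0165 and 0.00309). miR-217-5p of the exocrine pancreas, miR-144-3p of red cells and miR-30e-5p also rose, by 3.14, 0.98 and 0.71 (edgeR adjusted p = 0.000704, 0.0322 and 0.00145). miR-150-5p, a lymphocyte miRNA, and miR-146a-5p, which is induced in inflammation, had changes of 0.22 and 0.41 that did not pass (edgeR adjusted p = 0.490 and 0.0949). After subtraction of group means r with 5p was 0.79 for miR-150-5p, 0.72 for miR-23b-3p, 0.67 for miR-146a-5p, 0.75 for miR-27b-3p and 0.46 for miR-217-5p. With 3p it was 0.57 for miR-23b-3p, 0.58 for miR-144-3p, 0.49 for miR-27b-3p, 0.35 for miR-30e-5p and 0.44 for miR-126a-5p. These correlations describe 23 libraries that share diets and depth.

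Of 15 other miRNAs with roles in endothelium 13 were tested, and with fish oil averaged over exposures 4 rose, 1 fell and 8 did not pass. Over all names 36.8% were called in this comparison, 19.9% higher and 16.9% lower, so 5 calls among 13 are near the background. The median log2 change was 0.23, against 0.06 over all names. The one that fell was miR-92a-3p, which restrains vessel growth in mouse (-1.09, SE 0.23, edgeR adjusted p = 0.000656). The most counted was miR-10a-5p, at 0.41 (SE 0.26, edgeR adjusted p = 0.218). The summed level of the 13 ran from 49324 to 89695 CPM on fish oil with ozone, 47367 to 77002 on fish oil with air, 53101 to 89317 on the normal diet with ozone and 51967 to 83960 on the normal diet with air, so the groups overlapped.

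Markers of other cells in vessel and blood are given beside miR-126a, and their counts of calls are to be read against the same 36.8%, 19.9% and 16.9% over all names. Both tested smooth muscle miRNAs of 4 listed rose (median 1.14), led by miR-143-3p at 1.07 (SE 0.23, edgeR adjusted p = 0.000913), and their summed level was 168037 to 437140 CPM and 110604 to 381956 CPM on fish oil with ozone and air, against 79581 to 189971 and 86187 to 269553 CPM on the normal diet. Of 12 platelet miRNAs 10 were tested, and 0 rose, 5 fell and 5 did not pass (median -0.25). Their sum was 132327 to 201881 CPM and 138856 to 247705 CPM on fish oil with ozone and air, wholly below the 289453 to 444902 and 263285 to 435434 CPM on the normal diet. miR-191a-5p, by far the most counted of them, fell by 1.54 (SE 0.22, edgeR adjusted p = 7.84e-06). The changes of the 10 tested platelet miRNAs ran from -1.54 to 0.52, and their bearing on miR-126a was not tested. Of 5 erythrocyte miRNAs 4 were tested, with 2 higher and 2 not passed (median 0.78). The 2 that rose were the 5p and 3p strands of miR-144, at low means of 10.3 and 11.3 counts per library. The red cell miRNA miR-144-5p rose by 1.32 (SE 0.28, edgeR adjusted p = 0.000656) and miR-16-5p was at 0.06 (SE 0.15, adjusted p = 0.778). Their sum ran from 10712 to 24076 CPM on fish oil with ozone, 15312 to 23028 on fish oil with air, 10826 to 20424 on the normal diet with ozone and 12509 to 19693 with air. With the ratio of miR-451-5p to miR-23a-3p, a measure of red cell breakage, as a covariate, the changes were 0.62 for 5p and 0.95 for 3p (edgeR adjusted p = 0.0231 and 0.0245). Among leukocyte miRNAs 5 of 6 were tested, and miR-223-3p, which is also on the platelet list, fell by 0.80 (SE 0.26, edgeR adjusted p = 0.0165) while 4 did not pass, a share of calls under the background. All 3 liver miRNAs were tested, and miR-192-5p fell by 0.62 (SE 0.19, edgeR adjusted p = 0.0118) while 2 did not pass, a share near the background. The part of these other cells in the miR-126a result was not tested.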

How the data were processed

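Serum small RNA was sequenced as single-end reads, per the labels' protocols. The authors deposited expected counts per mature miRNA locus and, per miRNA name, RPM; the tools were Bowtie 1.0.0, Partek and bcl2fastq and the build rn5, per the submitters' processing notes. The sources used here give no filters, use of strand or treatment of multi-mapping reads. The deposited RPM equal the counts over a larger total per library (2243916 to 7729948 reads, called the implied read total) plus 0.0001, to within 0.0328 reads.

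Loci of each name were summed and rounded. Counts were filtered (edgeR filterByExpr, minimum count 10, minimum total 15), scaled with TMM (edgeR's trimmed mean) and fitted for all names with the edgeR 4.0.16 quasi-likelihood test in R 4.3.3, with 1 mean per group. Benjamini-Hochberg adjustment covered the 136 names tested in each of 7 comparisons (threshold 0.05). Arm ratios, log2((5p + 0.5)/(3p + 0.5)) per library, were compared by exact permutation and, over 14 precursors, with limma 3.58.1. Scripts were tested on simulated data. Alternatives were DESeq2 1.42.0, voom, other scalings and filters, a covariate and leaving out each library. Besides both arms, the rule for names was the 5 most correlated miRNAs per arm, the smallest p and the largest mean count in each list, and the 2 nearest precursors and the most counted one by arm ratio. Members and lists were chosen with earlier results of these data known.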

Additional observations from a re-analysis of the deposited data

Results flagged for a closer look

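miR-126a-5p in normal ozone replicate 6 stood far from the other 5 libraries of its group, at 28123 CPM against a next highest of 13592 CPM, and also in RPM, at 697 against 294. Normal air replicate 3 stood apart in RPM, at 386 against a next highest of 148. Of 24 sets of values checked for a distant library these 3 were marked, and chance marks about 1 in 20 where values are normally distributed. CPM and RPM were checked on a linear scale, where that rate need not hold. The sets also share libraries, and normal ozone replicate 6 was marked in both CPM and RPM, so the marks are not independent. Both libraries had implied read totals among the 3 lowest, 2243916 and 2652012 reads, and 20 counts of 3p each. The part of depth in these values was not tested. Without both libraries, a choice made after seeing them, the average change with fish oil was 0.85 for 5p and 1.38 for 3p (edgeR adjusted p = 0.00125 and 0.00187).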

How the results depend on the processing

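Over 21 results and 683 alternative values, 661 kept the direction of the reported value where it was called, and its side of the threshold. The only results called were the rises of 5p and 3p with fish oil averaged over exposures. Most of the 661 are thus non-calls that stayed non-calls. Fits that left out 1 library make up 483 of the alternatives and share most of their libraries. Each called rise had 12 alternatives of other kinds. Among these, 4 lost the call in the same direction and 4 others reversed it. The rise of both strands with fish oil, averaged over exposures, ended when reads were scaled to the implied total. With it as library size the log2 change was -0.30 for 5p and -0.00216 for 3p. With limma on the authors' RPM it was -0.22 for 5p with a pseudocount of 0.1 or 1 (-0.217 and -0.216), and 0.45 and 0.18 for 3p. On log2(RPM + 0.1) without normal ozone replicate 6 and normal air replicate 3, an alternative added after seeing the data, it was 0.14 for 5p and 0.89 for 3p. The construction of these scales shows why they differ from TMM: the miRNA part of the total was smaller with fish oil. Leaving out each library in turn gave 0.51 to 0.79 for 5p in this comparison, -0.79 to -0.53 for the arm ratio, and, after ozone, 0.45 to 0.99 for 5p and 0.78 to 1.36 for 3p. In edgeR without both named libraries the changes after ozone were 0.999 for 5p and 1.37 for 3p, and both passed. For the other alternatives that differed, the cause was not tested.

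Calls over all names moved by over 1.5 times in some settings. In air 8 were called with TMM in edgeR, against 38 with the implied read total, 28 and 30 on RPM, 15 in DESeq2, 14 with total count scaling and 5 in voom. Averaged over exposures 50 were called, against 76 on log2(RPM + 1), and after ozone 31 against 52. Leaving out each library in turn gave 43 to 56 calls averaged over exposures, 12 to 34 after ozone (12 without fish oil ozone replicate 3) and 3 to 15 in air. The air comparison had 15 calls when fish oil air replicate 3 was left out, 3 for replicate 4 or 5 of that group and 4 for its replicate 6. It had 4 when normal air replicate 5 was left out and 5 for replicate 6. After ozone the split was 17 higher and 14 lower, against 0 and 46 with the implied read total; in air it was 1 and 7, against 11 and 3 with total count scaling. With 1 to 22 counts per library, changes of the 3p strand are limited by depth. Both summed arms gave 0.66 (edgeR adjusted p = 0.0125). No paired analysis was made because no pairing of libraries across groups is recorded. The replicate numbers used here count libraries within a group only.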
